A study of Mus musculus with 11 samples.

Results

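The genes examined here encode 9 proteins with which the liver makes, senses and stores glucose. *Pcx*, *Pck1*, *Fbp1* and *G6pc1* encode enzymes of gluconeogenesis, *Slc2a2* the hepatocyte glucose transporter, *Gckr* and *Pklr* proteins that govern the use of glucose, and *Ppp1r3b* and *Ppp1r3c* subunits that direct a phosphatase to glycogen. They were chosen by gene symbol for these functions. All 9 were found among the 13669 genes of the deposited table, and all 9 were among the 13334 that passed the filter on low counts and were tested. They were followed in the livers of 11 wild-type male mice injected with recombinant adeno-associated virus. The virus of 6 mice (AAV-TuD) encoded the TuD, a decoy transcript that captures *miR-379* together with *miR-541*, and that of 5 mice (AAV-NC) a negative control sequence. The comparison asks how the liver responds when these miRNAs, both members of a larger cluster (*miR-379/miR-410*), are held back. The study reports that the decoy also lowered the transcripts that host the cluster, *lncMGC* and *Mirg*, and other miRNAs of the cluster. The contrast is therefore not limited to the miRNAs the decoy was designed against. Per its methods, the vectors carried a liver-specific promoter, the mice ate regular chow, and they were killed after a short fast. The methods give the age of mice and the time from injection to death in general terms, as weeks to months after the virus for the decoy studies, and not for these 11 animals.

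When food is absent the liver builds glucose from lactate, amino acids and glycerol. Pyruvate is carboxylated in the mitochondrion, converted to phosphoenolpyruvate, carried up to fructose 1,6-bisphosphate, and dephosphorylated in separate steps to fructose 6-phosphate and to free glucose. After a meal glucose is phosphorylated and kept inside the cell, glycolysis ends at pyruvate kinase, and the surplus is laid down as glycogen. Glucagon and insulin set the balance between these directions, and *Pck1*, *G6pc1* and *Igfbp1* are textbook transcriptional readouts of it.

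Libraries sequenced the 3′ end of polyadenylated transcripts, so read numbers do not grow with transcript length and the levels of different genes can be compared without division by length. The total on genes was 8148531 reads in the shallowest liver and 12043959 in the deepest. Levels are given as CPM, the reads of a gene relative to the TMM-scaled library size. Major urinary protein (*Mup*) transcripts took over 25% of reads in 3 livers, AAV-NC 7, AAV-TuD 3 and AAV-TuD 5, and at most 18.7% in the others. Of the 13334 genes tested, edgeR's quasi-likelihood test called 11.6% different at a Benjamini-Hochberg adjusted p under 0.05, 7.24% higher and 4.33% lower with AAV-TuD. Of the genes called, 62.6% were higher with TMM scaling, 69.3% after removal of a trend with abundance, and 95.1% with library size alone, which moved the median gene to a log2 fold change of 0.23. In the livers, fewer cells of a type and less RNA per cell cannot be told apart.

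The decoy was designed against mature miRNAs of chromosome 12, at chr12:109709065-109709085 and chr12:109742422-109742446 (RefSeq, GRCm38.p6, plus strand). Their sequences are shown because the matches to them are what the decoy and any messenger RNA would share. Capitals mark the seed, bases 2 to 8 from the 5′ end.
miR-379-5p: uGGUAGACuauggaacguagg
miR-541-5p: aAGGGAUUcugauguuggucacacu
The complement of the seed was sought on the transcribed strand of the 9 genes, in their longest 3′ UTR (GENCODE M21, GRCm38). Seeds of other miRNAs of the cluster were not sought. *Pcx* and *Ppp1r3c* held a match for *miR-379-5p* (GTCTACC), which was present in 5.73% of the 10934 tested genes with an annotated 3′ UTR. None of the 9 longest UTRs held the match for *miR-541-5p* (AATCCCT), present in 9.51% of genes. With all annotated transcripts, a shorter *Slc2a2* transcript held it. The matches are in capitals below, at chr19:4621683-4621711 (plus strand), chr19:36732535-36732563 (minus strand) and chr3:28727051-28727079 (plus strand).
Pcx, miR-379-5p match: ggtcatgtacaGTCTACCgcaccctagtg
Ppp1r3c, miR-379-5p match: gtttaaacatgGTCTACCaggaaccatgt
Slc2a2, miR-541-5p match: gggccaggtccAATCCCTtggttcatggt
The *Pcx* match starts at base 406 of a UTR of 464 bases, and the *Ppp1r3c* match at base 863 of 1684. Neither gene passed the test, as described with their values below.

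Of the 9 genes, *Fbp1* rose with AAV-TuD and none of the others passed the test in either direction. This is 1 gene called of 9, beside 11.6% of all genes tested. At an unadjusted p under 0.05 edgeR gave 4 of the 9, *Fbp1* above 0 and *Pcx*, *Gckr* and *Pklr* below it. Such p values were common. *Pcx*, with the largest of the 4, was at position 3034 by p value, so at least 3034 of the 13334 genes had one. The 11.6% is for the adjusted threshold and cannot be set beside the 4 of 9. Levels separated the groups without overlap for *Fbp1* and, by a narrow margin, for *Gckr*, whereas 7.39% of all genes tested had groups that did not overlap. The log2 fold change was below 0 in 8 of the 9 genes. When libraries were scaled by their size alone, all of these 8 except *Pklr* moved above 0, while the median of all genes moved to 0.23 as well.

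**Figure D1:**
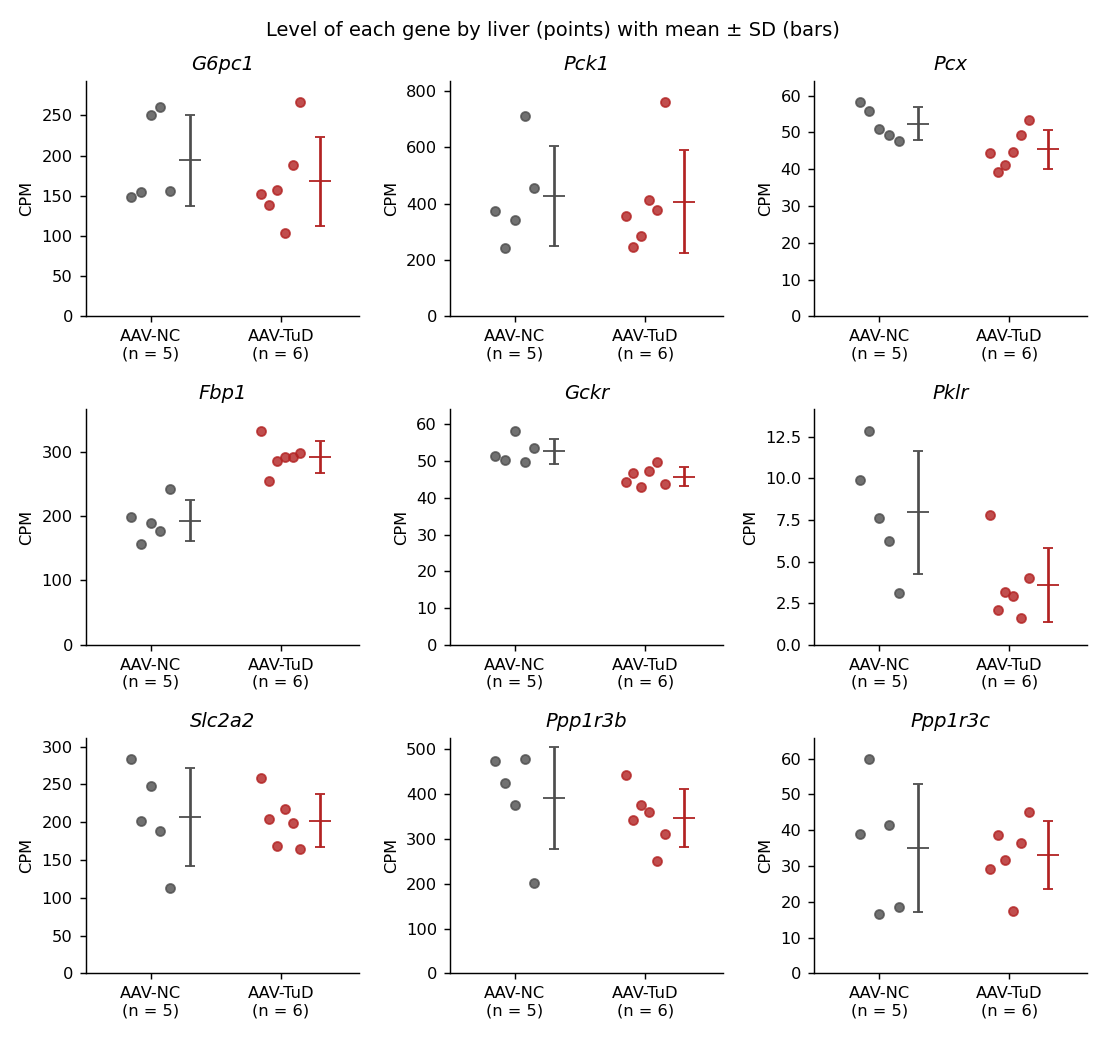
Level of each of the 9 genes in CPM (vertical axes, from 0) in 5 AAV-NC livers (grey) and 6 AAV-TuD livers (red), with the mean and SD of each group as bars. All AAV-TuD livers lie above all AAV-NC livers for *Fbp1*, *Gckr* groups nearly touch, and the points of the other genes overlap.

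*Fbp1* (ENSMUSG00000069805, chromosome 13 of GRCm38 from 62864753 to 62888282, minus strand) encodes fructose-1,6-bisphosphatase 1, which removes the phosphate that phosphofructokinase adds and so commits carbon to glucose. Its level in the AAV-NC livers was 157, 176, 189, 198 and 242 CPM. The AAV-TuD livers had a lowest level of 254, a median of 291 and a highest of 332 CPM. Every AAV-TuD liver was thus above every AAV-NC liver, with the AAV-NC liver 8 nearest to them. The mean level went from 192 ± 31.9 CPM (SD, n = 5) to 292 ± 25.1 CPM (SD, n = 6). In edgeR's test this was a log2 fold change of 0.60 (standard error, SE, 0.10, adjusted p = 0.00206), or 1.52-fold with a 95% interval of 1.31 to 1.76. By p value *Fbp1* was at position 144 of the 13334 genes, and by fold change at position 725 of the 966 genes called higher. It passed the test in all 21 alternatives, including each liver left out in turn, with a log2 fold change between 0.53 and 0.81.

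The gluconeogenic steps on either side of *Fbp1* did not pass the test. *Pcx* (ENSMUSG00000024892, chromosome 19) encodes pyruvate carboxylase, the mitochondrial entry step. Its levels were 47.6, 49.2, 50.8, 55.9 and 58.1 CPM in AAV-NC livers, and 39.2 at the lowest, 44.6 at the median and 53.4 at the highest in AAV-TuD livers. The groups overlapped, with 5 of the 6 AAV-TuD livers below the AAV-NC median. In edgeR's test *Pcx* had a log2 fold change of -0.20 (SE 0.09, adjusted p = 0.152).

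*Pck1* (ENSMUSG00000027513, chromosome 2) encodes the cytosolic phosphoenolpyruvate carboxykinase and was the most abundant of the 9 genes on average. The AAV-NC livers had 241, 344, 375, 457 and 712 CPM. The AAV-TuD livers had 247 at the lowest, 367 at the median and 760 at the highest. One liver in each group, AAV-NC 7 and AAV-TuD 11, stood well above its companions, and the ranges of the groups nearly coincided. The means were 426 ± 178 CPM (SD, n = 5) and 407 ± 183 CPM (SD, n = 6), a log2 fold change of -0.07 (SE 0.28, 95% interval -0.65 to 0.52, adjusted p = 0.916 in edgeR's test). Without AAV-NC 7 the log2 fold change was 0.20.

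*G6pc1* (ENSMUSG00000078650, chromosome 11) encodes the catalytic subunit of glucose 6-phosphatase, the last step before glucose leaves the cell. Its levels were 148, 155, 156, 250 and 261 CPM in AAV-NC livers, with AAV-NC 6 and AAV-NC 7 apart from the other 3. In AAV-TuD livers they ran from 104 through a median of 155 to 266 CPM, wider than the AAV-NC range at both ends. AAV-TuD 11, the liver with most *Pck1*, also had most *G6pc1*. Its log2 fold change was -0.21 (SE 0.21, 95% interval -0.65 to 0.24, adjusted p = 0.579 in edgeR's test). As folds, the 95% intervals ran from 0.64 to 1.43 for *Pck1* and from 0.64 to 1.18 for *G6pc1*, wide enough to hold modest changes in either direction.

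**Figure D2:**
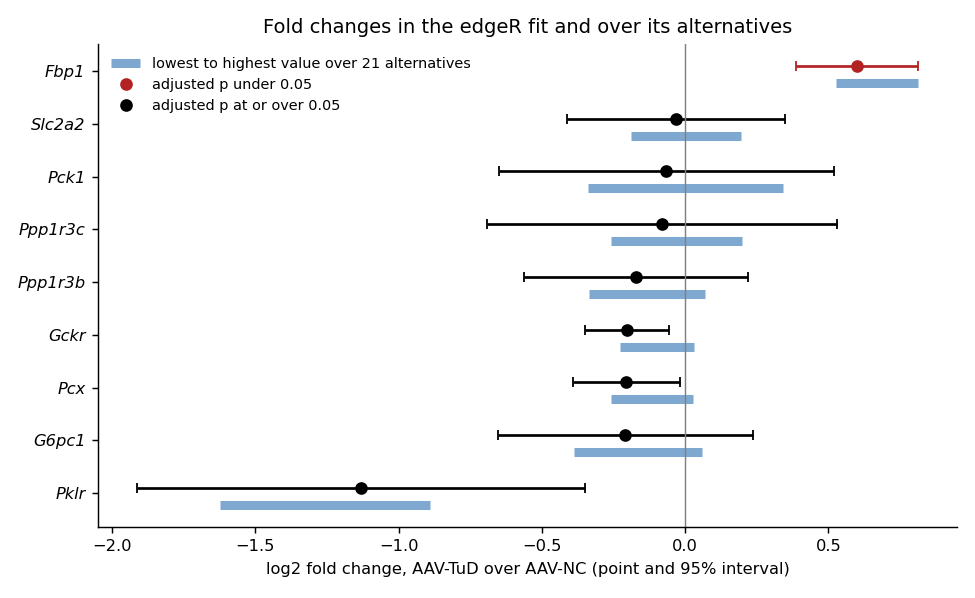
Log2 fold change of each gene, AAV-TuD over AAV-NC (horizontal axis), from the edgeR fit with its 95% interval (points with bars) and the lowest to highest value over 21 alternatives (blue). *Fbp1*, at 0.60, is the only gene past the adjusted p threshold, and *Pklr*, at -1.13, has the widest interval.

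*Slc2a2* (ENSMUSG00000027690, chromosome 3), which encodes the transporter GLUT2, did not pass the test. AAV-NC livers had 113, 189, 201, 248 and 283 CPM, and AAV-TuD livers 165 at the lowest, 202 at the median and 259 at the highest. All AAV-TuD values lay inside the AAV-NC range. Their difference amounted to -0.03 on the log2 scale (SE 0.18, 95% interval -0.41 to 0.35, adjusted p = 0.935 in edgeR's test). An antisense transcript is annotated across much of this gene, and the strand setting of the counting was not given in the sources used here.

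*Gckr* (ENSMUSG00000059434, chromosome 5) encodes a regulatory protein that restrains glucose phosphorylation in the hepatocyte. Its levels were 49.7, 50.4, 51.4, 53.5 and 58.2 CPM in AAV-NC livers, and 42.9 at the lowest, 45.5 at the median and 49.7 at the highest in AAV-TuD livers. The groups did not overlap, but the lowest AAV-NC and the highest AAV-TuD liver agreed to 3 digits. For *Gckr* edgeR gave a log2 fold change of -0.20 (SE 0.07, adjusted p = 0.0699). DESeq2, which called 13.6% of all genes, placed *Gckr* past the threshold (adjusted p = 0.0461). It was past it in 1 of 21 alternatives, with adjusted p values between 0.0461 and 0.926.

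*Pklr* (ENSMUSG00000041237, chromosome 3) encodes the liver pyruvate kinase, the last step of glycolysis, and was the least abundant of the 9 genes, with 19 to 102 reads per liver. Its levels were 3.11, 6.26, 7.64, 9.91 and 12.8 CPM in AAV-NC livers, and 1.64 at the lowest, 3.05 at the median and 7.79 at the highest in AAV-TuD livers. In all AAV-TuD livers but AAV-TuD 3 the level was below 4 of the 5 AAV-NC livers, and AAV-NC 8 lay among them. This gave a log2 fold change of -1.13 (SE 0.37, 95% interval -1.91 to -0.35, adjusted p = 0.0589 in edgeR's test), the largest of the 9 in size. The call depended on single livers. Without AAV-TuD 3 the adjusted p in edgeR was 0.00745, without AAV-NC 8 it was 0.0215, and without the 3 livers with most *Mup* reads it was 0.0152 (log2 fold change -1.63), a choice made after seeing the data. The gene was also past the threshold in limma-voom (adjusted p = 0.0317) and with library size alone in edgeR (adjusted p = 0.0300). Leaving out AAV-NC 2, the liver with most *Pklr*, raised it to 0.155 in edgeR. At 19 reads, the lowest count, the Poisson 95% interval alone ran from 11.4 to 29.7 reads, for counting error only.

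Neither glycogen-targeting subunit passed the test. *Ppp1r3b* (ENSMUSG00000046794, chromosome 8) encodes the principal subunit in liver, which brings protein phosphatase 1 to glycogen synthase. Its levels were 202, 377, 425, 474 and 478 CPM in AAV-NC livers, and 250 at the lowest, 352 at the median and 443 at the highest in AAV-TuD livers. AAV-NC 8 was below all other livers, and all AAV-TuD values fell between it and the highest AAV-NC values. Between the groups the log2 fold change came to -0.17 (SE 0.18, 95% interval -0.56 to 0.22, adjusted p = 0.613 in edgeR's test).

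*Ppp1r3c* (ENSMUSG00000067279, chromosome 19) encodes a targeting subunit with a wider tissue range. It was at 16.7, 18.7, 38.9, 41.4 and 59.8 CPM in AAV-NC livers, and 17.5 at the lowest, 34.0 at the median and 45.0 at the highest in AAV-TuD livers. AAV-NC 6, AAV-NC 8 and AAV-TuD 9 were low, and the others were at 29.2 CPM or above. With this spread the log2 fold change was -0.08 (SE 0.29, 95% interval -0.69 to 0.53, adjusted p = 0.903 in edgeR's test).

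The genes differed in how much they varied among livers of a group. The SD of log2 CPM within groups was 0.75 for *Pklr*, 0.63 for *Ppp1r3c*, 0.57 for *Pck1*, 0.43 for *G6pc1*, 0.40 for *Ppp1r3b* and 0.38 for *Slc2a2*, against 0.18 for *Fbp1*, 0.15 for *Pcx* and 0.09 for *Gckr*. The median was 0.18 over the 8372 genes that averaged 50 reads or more. The 6 more variable genes were each more variable than over 90% of these genes, and *Gckr* was among the steadiest 5%. In mean level the AAV-NC order was *Pck1*, *Ppp1r3b*, *Slc2a2*, *G6pc1*, *Fbp1*, *Gckr*, *Pcx*, *Ppp1r3c* and *Pklr*. *Ppp1r3b* exceeded *Slc2a2*, *Fbp1* exceeded *Gckr* and *Ppp1r3c* exceeded *Pklr* in all 5 AAV-NC livers, while the order of other neighbours varied from liver to liver. With AAV-TuD *Fbp1* moved up to the third place, above *Slc2a2* in 6 of 6 livers.

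Likeness of pattern was measured as the root mean square difference of standardised log2 CPM over the 11 livers, among 8222 genes outside the lists used here. The closest to *Fbp1* were *Eif4a3* (0.33), which encodes an RNA helicase of the exon junction complex, and *Ccdc125* (0.33). For *G6pc1* they were *Eapp* (0.54) and *Npc1* (0.56), and for *Pck1* they were *Prmt9* (0.55) and *Atp5mf* (0.60). With 11 points and this many candidates, such values describe resemblance in these livers only.

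Pairs of genes with related or opposed roles were also set against each other within each liver, as differences of log2 CPM and without a test. *Pck1* over *Pklr*, the step from oxaloacetate to phosphoenolpyruvate over the step that consumes it, was 4.21, 5.22, 5.46, 6.79 and 7.11 in AAV-NC livers and between 5.48 and 7.68 in AAV-TuD livers. The mean was higher by 1.06 with AAV-TuD, less than the SD of the AAV-NC livers (1.19). *Ppp1r3b* over *Ppp1r3c* averaged 3.57 ± 0.59 (SD, n = 5) in control livers and 3.42 ± 0.64 (SD, n = 6) with the decoy. *Gys2* over *Pygl*, glycogen synthase over glycogen phosphorylase of the liver, had -3.12 ± 0.22 (SD, n = 5) and -3.16 ± 0.17 (SD, n = 6). In no pair did the groups separate.

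**Figure D3:**
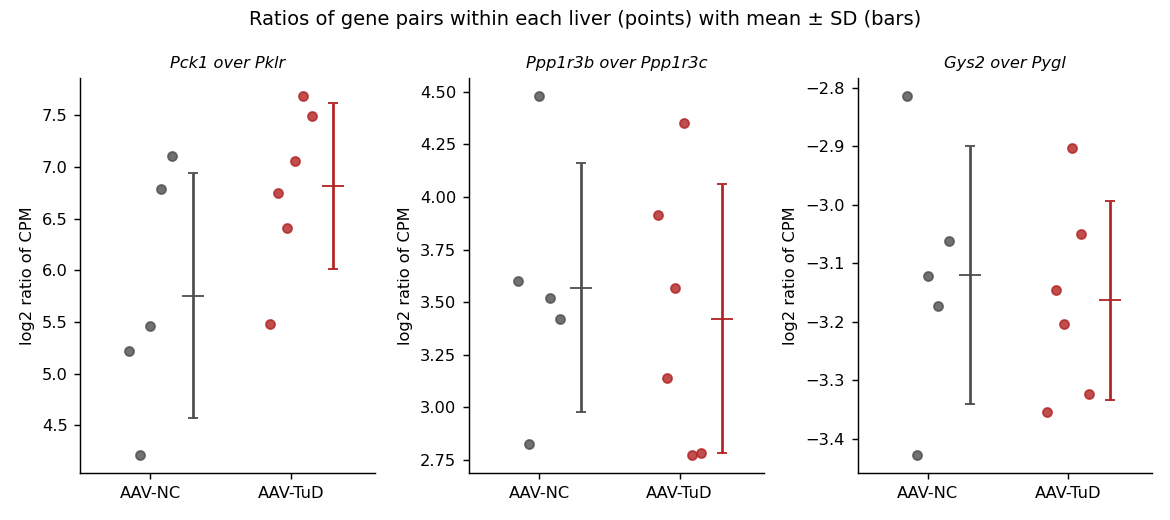
Log2 ratio of CPM within each liver for 3 pairs of genes (vertical axes, log2 scale, not from 0), with AAV-NC livers in grey, AAV-TuD livers in red, and the mean and SD of each group as bars. The groups overlap in all 3 pairs, and the highest points of *Pck1* over *Pklr*, up to 7.68, are AAV-TuD livers.

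Around these 9 genes, 120 others of glucose and glycogen handling were listed by function, and 104 were tested. AAV-TuD livers had higher expression of 5 and lower expression of 12, together 17 genes or 16.3%, beside 7.24% of all genes called higher and 4.33% called lower. The median log2 fold change over the 104 was -0.07, with 39 above and 65 below 0, against -0.0024 over all genes tested. The count fell to 9 when a trend with abundance was removed, and to 10 or 11 without AAV-NC 1, AAV-NC 6, AAV-TuD 4, AAV-TuD 5 or AAV-TuD 9. The split also moved with the scaling, since 5 of the 9 calls after removal of the trend were higher, and 12 of 13 with library size alone. Among the calls below, *Mlxipl* was made in 9 of 21 alternatives, *Pdk4* and *Gk* in 10, *Tkfc* in 11, *Gaa* in 12, and *Ugp2*, *Gcgr* and *Txnip* in 13.

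Among 14 other genes of the glucose 6-phosphatase system and of the reversible steps of gluconeogenesis, 3 were lower and none higher. Over all genes tested, 7.24% were called higher and 4.33% lower. The median log2 fold change of the 14 was -0.14. Among them *Gpi1* (glucose 6-phosphate isomerase, log2 fold change -0.34) and *Eno1* (enolase, -0.27) were lower, with groups that did not overlap. Reads of *Eno1* may be shared with its copy *Eno1b*. With library size alone *Gpi1* and *Eno1* had log2 fold changes of -0.12 and -0.04, and neither was then called. *Slc37a4*, the glucose 6-phosphate transporter that serves *G6pc1*, was not called (-0.21, adjusted p = 0.370 in edgeR's test, and 0.03 with library size alone).

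In glucose and fructose phosphorylation and the control of glycolysis, 1 of 12 genes was higher and 2 were lower. The shares over all genes tested were 7.24% higher and 4.33% lower. *Khk* and *Tkfc*, the first and the third enzyme of fructose breakdown, were lower by log2 fold changes of -0.47 (139 ± 23.6 CPM, n = 5, to 100.4 ± 12.2, n = 6, SD) and -0.45 (126 ± 20.2 to 92.0 ± 19.1 CPM). The groups overlapped through AAV-TuD 3, which had the highest level of its group in both genes. *Pkm*, the pyruvate kinase of most other tissues and cell types, rose from 4.62 ± 1.17 to 8.29 ± 1.51 CPM (log2 fold change 0.84).

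Of 12 genes of pyruvate handling, only *Pdk4*, a kinase that switches off pyruvate dehydrogenase, passed the test (log2 fold change 0.94, SE 0.28, adjusted p = 0.0443 in edgeR's test). Its level was low, 0.38 to 1.64 CPM in AAV-NC and 1.55 to 2.19 CPM in AAV-TuD livers. Among 16 genes of substrate supply, *Sdsl*, a serine dehydratase-like gene, was lower (-1.04, 8.02 ± 4.08 to 3.95 ± 0.51 CPM), as was *Gk*, encoding glycerol kinase (-0.27). Both lists stand beside 11.6% of all genes tested that were called.

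In the 3 glycogen lists 3 of 21 tested genes were called, or 14.3%, beside 11.6% of all genes. Of 9 genes for glycogen synthesis 1 was lower, *Ugp2*, which makes UDP-glucose (150 ± 34.2 to 109 ± 11.5 CPM, log2 fold change -0.46, adjusted p = 0.0271 in edgeR's test). *Gys2*, the liver glycogen synthase, had 40.2 ± 6.58 CPM in AAV-NC livers, against 36.7 ± 3.60 in the AAV-TuD livers (adjusted p = 0.460 in edgeR's test). Of 7 genes for breakdown, *Gaa*, the lysosomal glucosidase, was lower (-0.38), and *Pygb*, the phosphorylase named for brain, rose from 3.51 ± 1.30 to 9.49 ± 3.12 CPM (log2 fold change 1.43, adjusted p = 0.00321 in edgeR's test), with no overlap. *Pygl*, the liver phosphorylase, was far more abundant than *Pygb*, at 349 ± 32.9 and 330.0 ± 30.4 CPM (adjusted p = 0.594 in edgeR's test). None of the 5 tested genes for the phosphatase at glycogen and for glycophagy was called by edgeR (1 at an unadjusted p under 0.05, and 0 by DESeq2), with log2 fold changes between -0.33 and 0.09. The log2 fold changes of *Gys2* and *Pygl* were above 0 with library size alone.

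**Figure D4:**
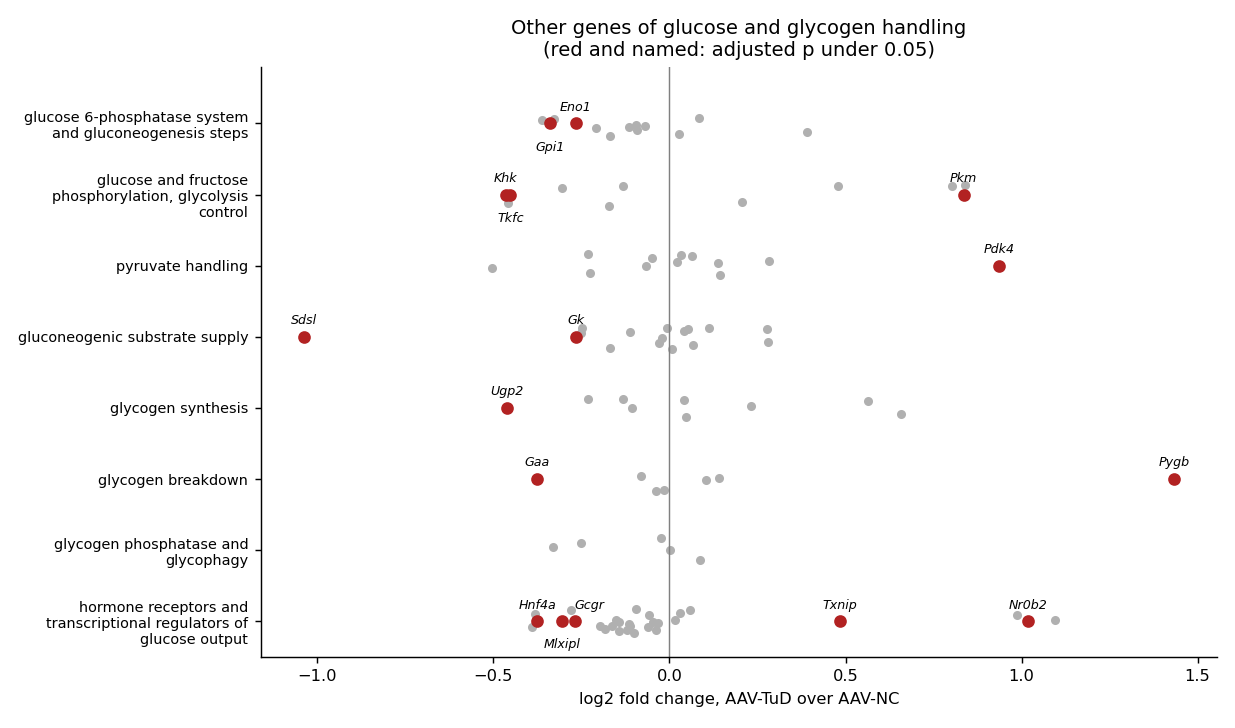
Log2 fold change of the tested genes reported here, AAV-TuD over AAV-NC (horizontal axis), in 8 lists of glucose and glycogen handling (rows), with genes past the adjusted p threshold in red and named. Lower calls gather at modest sizes between -0.27 and -0.47, with *Sdsl* at -1.04, and the highest point is *Pygb* at 1.43.

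Hormone receptors and transcriptional regulators contributed 2 higher and 3 lower genes of 29 tested, beside 7.24% and 4.33% of all genes. *Gcgr*, the glucagon receptor, was lower (45.1 ± 1.95 to 37.5 ± 3.34 CPM, log2 fold change -0.27, adjusted p = 0.0310 in edgeR's test), with no overlap of groups. *Hnf4a*, a nuclear receptor that maintains hepatocyte expression, was lower (-0.38), as was *Mlxipl*, encoding the glucose-sensing factor ChREBP (-0.30), which was named after its values were seen. *Nr0b2*, the repressor SHP, was 2.03-fold higher (7.33 ± 2.05 to 14.8 ± 4.15 CPM), and *Txnip*, a glucose-responsive gene, 1.40-fold higher. With library size alone *Gcgr* and *Hnf4a* had log2 fold changes of -0.05 and -0.15 and were not called. *Insr*, the insulin receptor, missed the threshold (-0.28, adjusted p = 0.0804 in edgeR's test), and *Foxo1* (-0.03) and *Ppargc1a* (-0.11), which drive *Pck1* and *G6pc1* in fasting, gave adjusted p values of 0.847 and 0.696 in edgeR. *Igfbp1* was at 9.51 to 32.4 CPM in AAV-NC and 7.51 to 69.4 CPM in AAV-TuD livers. AAV-TuD 10 and AAV-TuD 11 were high and the other 4 within or below the AAV-NC range (adjusted p = 0.261 in edgeR's test).

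Markers of other liver cells differed between the same groups. Their counts stand beside 7.24% of all genes called higher and 4.33% called lower. Of the 10 stellate cell markers 8 were higher, with a summed level of 210 to 268 CPM in AAV-NC and 359 to 481 in AAV-TuD livers. Of the 10 Kupffer cell markers 7 were higher, with 126 to 186 and 141 to 399 CPM. For cholangiocytes 5 of 6 tested markers were higher, with 89.0 to 126 and 155 to 194 CPM, and 4 of the 10 listed did not enter the test. The largest part of this sum was *Cdh1*, with means of 81.1 CPM in AAV-NC and 106 CPM in AAV-TuD livers. *Krt19* (0.80 and 2.15 CPM) and *Epcam* (0.66 and 2.60 CPM) added little to it. None of 10 sinusoidal endothelial markers was called by edgeR (0 at an unadjusted p under 0.05, and 0 by DESeq2), with 264 to 292 and 263 to 284 CPM. Of 9 tested hepatocyte markers, whose sum was 37410 to 44276 CPM in AAV-NC and 46785 to 52741 CPM in AAV-TuD livers, *Cyp3a11* was higher and *Hnf4a* lower. The most abundant of the 9 made this difference, and the other 8 summed to 18683 to 22042 and 18667 to 21446 CPM. The median log2 fold change of the 9 was -0.08. The marker differences lay between the same 2 groups as the higher *Fbp1*, *Pkm* and *Pygb* and the lower calls. Their part in those calls was not tested. The summed stellate cell and cholangiocyte markers were above all AAV-NC livers in all 6 AAV-TuD livers, and the Kupffer cell sum in 5. In AAV-TuD 3, the liver with most *Fbp1* (332 CPM), the Kupffer cell marker *Cd5l* was within the AAV-NC range (18.1 CPM).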

How the data were processed

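Liver RNA of 5 AAV-NC and 6 AAV-TuD mice was examined, grouped by the labels' treatment. The authors made QuantSeq 3′ mRNA libraries, and used BBDuk for trimming, STAR 2.5.3a for alignment to GRCm38 and Rsubread for counting. The deposited counts per gene are not normalized. The annotation, the strand setting and the treatment of reads with several matches are not given in the sources used here.

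Genes were kept where 5 or more livers had over 10 reads, and tested with edgeR 4.0.16 (R 4.3.3) in a quasi-likelihood fit with TMM factors and Benjamini-Hochberg adjustment over all 13334 genes, where the study used DESeq2 1.38.3. The log2 CPM values carry a prior count of 2. P values set the difference between the groups against the spread among livers within them, with that spread moderated across genes. Alternatives were DESeq2 1.42.0, limma-voom (limma 3.58.1) with quality weights, DESeq2 size factors, upper-quartile factors, library size alone, TMM without *Mup* genes, removal of a lowess trend with abundance (span 0.3), no filter, the filter of edgeR, and each liver left out. Fits were also run on counts simulated from edgeR's own model of these data. That checks the code and not how well the model suits these livers. The genes and lists were chosen with earlier results of these data known. The genes named beyond the 9 were up to 4 called genes per list with the smallest p values, plus *Gys2*, *Pygl*, *Slc37a4*, *Foxo1*, *Ppargc1a*, *Gcgr*, *Insr*, *Pdk4* and *Igfbp1*. Results of a few genes that belong to these lists are not reported here.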

Additional observations from a re-analysis of the deposited data

Results flagged for a closer look

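In 10 of 66 groups of values (the 9 genes and 24 of the genes around them, in each group of livers), 1 liver stood apart from the rest of its group by Dixon's criterion, where chance flags about 1 in 20, or 3.3. The gap to the nearest liver as a share of the range was 0.673 for *Pck1* in AAV-TuD 11 (760 CPM, with 247 to 415 in the other 5). AAV-TuD 11 was also apart for *Nr0b2* (22.7 CPM, share 0.651). AAV-TuD 3 was the highest of its group for *Khk* (124 CPM, share 0.639), *Tkfc* (128 CPM, 0.662) and *Pygl* (392 CPM, 0.858). AAV-TuD 4 was the highest for *Pdk4* (2.19 CPM, 0.751). Among AAV-NC livers, AAV-NC 8 was the highest for *Sdsl* (15.2 CPM, 0.789, with 5.51 to 7.55 in the others) and the lowest for *Pygl* (292 CPM, 0.751). AAV-NC 6 was the highest for *Foxo1* (29.9 CPM, 0.721) and *Igfbp1* (32.4 CPM, 0.774).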

How the results depend on the processing

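*Fbp1* was called higher in all 21 alternatives. *Pklr* kept its direction in all 21 and was called in 5. The number of the 9 genes called rose from 1 to 2 with DESeq2 (2, with *Gckr*) and with limma-voom, library size alone and without the 3 *Mup*-rich livers (2 each, with *Pklr*), and was between 1 and 2 with single livers left out. Genes with groups that did not overlap went from 2 to 1 with upper-quartile factors, library size alone and the abundance trend removed, and stayed at 2 with single livers left out. The 17 calls among the other glucose and glycogen genes became 9 with the trend removed, and 10 to 19 with single livers left out. Library size alone moved the log2 fold change above 0 for *G6pc1* (0.0576), *Pck1* (0.24), *Pcx* (0.0274), *Gckr* (0.0326), *Slc2a2* (0.19), *Ppp1r3b* (0.0679) and *Ppp1r3c* (0.19), and by construction it keeps the difference in *Mup* share in the scale. Removing the trend did so for *Pck1* (0.0778) and *Slc2a2* (0.0886), limma-voom for *Pck1* (0.0119), and leaving out the 3 *Mup*-rich livers for *Pck1* (0.34) and *Ppp1r3c* (0.0444). The cause was not tested. With single livers left out, log2 fold changes ran from -0.34 to 0.20 for *Pck1*, from -0.19 to 0.11 for *Slc2a2* and from -0.26 to 0.20 for *Ppp1r3c*. DESeq2 called 1811 genes and edgeR 1543. No paired analysis was possible because AAV-NC and AAV-TuD livers share no replicate number, and no sequencing batch is named. Depth limits *Pklr* and *Pdk4*, which had 52.2 and 14 reads on average.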

Other observations

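Among genes of liver zonation and of the clock, which also vary with feeding, edgeR called 2 of 30, or 6.67%, beside 11.6% of all genes tested, a difference that was not tested. Of 9 tested periportal genes, *Asl*, an enzyme of the urea cycle, was lower with AAV-TuD (log2 fold change -0.35), and of 10 pericentral genes, *Oat*, ornithine aminotransferase, was higher (0.53). None of 11 tested clock genes passed the test in edgeR (0 at an unadjusted p under 0.05, and 0 by DESeq2), with log2 fold changes between -0.19 and 0.39. The summed level of the pericentral genes was 2072 to 4237 CPM in AAV-NC and 2827 to 3157 CPM in AAV-TuD livers.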
